A study of Mus musculus with 4 samples.

Results

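Interferon gamma, perforin, 5 granzymes and 3 further proteins of the cytotoxic granule were followed in γδ T cells of mouse fat. The genes are IFNG, GZMA, GZMB, GZMC, GZMK, GZMM, PRF1, NKG7, SRGN and SERPINB9. They were found by symbol in the deposited tables, which write symbols in capitals, where all 10 had a locus among 44809 genes, and overlapping loci of one symbol were summed. Of the 10, 7 had a locus of their own and 3 shared one, namely GZMC with GZMF, GZMM with CDC34, and SERPINB9 with SERPINB9B. The value of a shared locus cannot be assigned to either gene. Where expression values, fold changes or calls below name SERPINB9 alone, its locus shared with SERPINB9B is meant. The cells came from epididymal fat of male C57Bl/6 mice aged 16 to 22 weeks that carry a GFP reporter of PLZF, a transcription factor encoded by ZBTB16. The study compared PLZF+ cells (libraries A7 and B7) with PLZF- cells (libraries A6 and B6), 2 libraries each, with every library made from a pool of 10 mice with the SMART-seq2 protocol, which copies whole transcripts from few cells. Neither the sort gates nor any pairing of libraries by mice is given in the sources used here, and the letter and digit of a library only name its column.

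Cytotoxic lymphocytes store perforin and granzymes in secretory granules and release them onto target cells, where perforin opens the membrane and the granzymes, a family of serine proteases, cleave proteins inside. Serglycin, the product of SRGN, is the proteoglycan that holds this cargo in the granule, and the inhibitor encoded by SERPINB9 protects the cell from its own granzyme B. Interferon gamma is the cytokine that such cells secrete, and γδ T cells are commonly divided into those that make interferon gamma and those that make IL-17.

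Depth and identity were checked first. Totals without the rRNA precursor and unnamed loci were about 1790922 and 1969556 estimated reads in PLZF+ libraries, against 722439 and 950755 in PLZF- libraries. A read is taken as the most frequent non-zero value of a library. ZBTB16 had 2899 and 2921 normalized counts in PLZF+ libraries, against 310 and 699 in PLZF- libraries, which checks the labels and is no finding since the cells were sorted on it. The 5 measured genes of the γδ T cell marker list (of 13 listed symbols) were CD3D, CD3E, CD3G and the loci of CD247 and the T cell receptor gamma chain. The CD3 genes and CD247 are not particular to γδ T cells, since αβ T cells express them too. The 5 were present in all 4 libraries, with a sum of 6780 and 7393 normalized counts for PLZF+ libraries, against 1969 and 2753 in PLZF- libraries. All 5 were higher in PLZF+ cells by limma, as were 2.52% of all tested genes. The most abundant was the locus of the T cell receptor gamma chain (4409 and 4801 against 1208 and 1556, limma adjusted p = 3.6e-05). Its log2 fold change was 1.56 to 1.93 with a library left out. CD3G (943 and 951 against 236 and 443) and CD3E (552 and 661 against 182 and 367), both chains of the T cell receptor complex, were also among them. CD3G lost its call without A7 (adjusted p = 0.093) or B7 (0.13), and CD3E without any one of A6, A7 and B7 (0.14 to 0.38). Markers of natural killer cells and group 1 innate lymphoid cells went the other way. Their sum over 12 measured genes was 304 and 306 normalized counts for PLZF+ libraries, against 5483 and 4726 in PLZF- libraries, and 3 of the 12 were at 0 in both PLZF+ libraries. Of the 11 tested, 10 were lower in PLZF+ cells and 0 higher, with NCR1 at 3.72 and 3.91 against 693 and 694. Over all tested genes 4.73% were lower and 2.52% higher. NCR1, and any tested marker at 0 in both PLZF+ libraries, reached the mean of 10 normalized counts needed for a test only through the PLZF- libraries. Such genes had to be lower in PLZF+ cells. KLRK1, an activating receptor, stood at 199 and 255 in PLZF+ libraries, against 1559 and 1285 in PLZF- libraries. The sum of 10 plasmacytoid dendritic cell markers was 110 and 84.8 in PLZF+ libraries, against 933 and 599 in PLZF- libraries, and that of 7 markers of group 2 innate lymphoid cells 175 and 114, against 2962 and 2545. The sum of 8 mast cell markers was 360 and 49.7, against 1102 and 565. CD4 was at 0 in both PLZF+ libraries, against 13.5 and 4.88 in PLZF- libraries, and the locus of the T cell receptor beta chain had 1244 and 926, against 3506 and 2165. The locus of the alpha chain, which also holds segments of the delta chain, went the other way (2723 and 2615 in PLZF+ libraries, against 744 and 893 in PLZF- libraries), and the sums of the 6 measured αβ T cell markers overlapped (3968 and 3541, against 4277 and 3081). Macrophage markers summed to 19.8 and 32.4, against 79.3 and 106. All 6 neutrophil markers, MS4A1, ADIPOQ and PDGFRA were at 0 in all 4 libraries. Of other B cell markers CD79B had 33.4 and 29.6 in PLZF+ libraries, against 1.69 and 7.32 in PLZF- libraries, and did not pass (adjusted p = 0.13). PECAM1, which endothelial cells and some leukocytes express, had 160 and 153, against 99.5 and 115, and did not pass (0.37). Adipocyte markers summed to 2.48 and 0, against 5.06 and 0. Natural killer cells also express most of the 10 genes, and the part of these other markers in the results below was not tested.

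The members lie on 4 chromosomes (positions from GENCODE M21 on GRCm38, the assembly that mm10 names). GZMB (chromosome 14, 56258838 to 56262260) and GZMC (56231441 to 56234656) belong to a cluster of 7 granzyme genes on the minus strand, with GZMF, GZMN, GZMG, GZMD and GZME. Coding sequences within this cluster were 71.2% to 94.8% identical over 21 pairs, and those of the other 24 granzyme pairs 60.1% to 66.2%. GZMC was 77.9% identical to GZMB and 76.4% to GZMF, its neighbour at the shared locus. GZMA (chromosome 13, 113093825 to 113100981) and GZMK (113171608 to 113225908) stand 70.6 kb apart. SERPINB9 (chromosome 13, 33003250 to 33017957) lies 9.46 kb from SERPINB9B, whose coding sequence is 86.4% identical. Whether this likeness makes reads of the pair uncertain was not tested. PRF1 (61297833 to 61304680), SRGN (62493833 to 62527451), GZMM (79689020 to 79695261) and IFNG (118441046 to 118445892) are on chromosome 10, and GZMM begins 621 bases after the end of CDC34. NKG7 is on chromosome 7 (43437073 to 43438249).

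The 250 bases before the transcription start (RefSeq, GRCm38.p6) are shown for the 4 single-gene loci that fell in PLZF+ cells and for IFNG and SRGN, which did not pass. RefSeq starts can differ from the GENCODE starts given above. The NKG7 window ends at 43437137, inside the gene as placed by GENCODE (from 43437073), and its T-box match lies in that part. Capitals mark the RUNX core (TGTGGT), the ETS core (GGAAG) and the T-box element (TCACACC), each searched on both strands, and GGAAG and the reverse T-box element GGTGTGA overlap in NKG7.
PRF1, chr10:61297586-61297835, plus strand: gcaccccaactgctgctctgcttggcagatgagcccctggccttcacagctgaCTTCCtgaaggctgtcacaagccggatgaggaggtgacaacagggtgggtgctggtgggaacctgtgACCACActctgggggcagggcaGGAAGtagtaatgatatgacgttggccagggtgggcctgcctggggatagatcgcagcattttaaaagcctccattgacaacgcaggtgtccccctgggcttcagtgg
GZMA, chr13:113100982-113101231, minus strand: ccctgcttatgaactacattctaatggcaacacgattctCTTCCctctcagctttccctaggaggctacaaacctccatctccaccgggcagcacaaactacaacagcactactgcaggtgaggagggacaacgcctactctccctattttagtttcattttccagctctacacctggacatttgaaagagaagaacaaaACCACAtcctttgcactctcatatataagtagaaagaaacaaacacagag
GZMB, chr14:56262335-56262584, minus strand: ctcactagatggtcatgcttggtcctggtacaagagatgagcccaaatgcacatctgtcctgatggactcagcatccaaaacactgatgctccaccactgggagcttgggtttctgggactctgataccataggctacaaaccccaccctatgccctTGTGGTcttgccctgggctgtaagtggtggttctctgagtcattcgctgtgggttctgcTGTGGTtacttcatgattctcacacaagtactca
NKG7, chr7:43436888-43437137, plus strand: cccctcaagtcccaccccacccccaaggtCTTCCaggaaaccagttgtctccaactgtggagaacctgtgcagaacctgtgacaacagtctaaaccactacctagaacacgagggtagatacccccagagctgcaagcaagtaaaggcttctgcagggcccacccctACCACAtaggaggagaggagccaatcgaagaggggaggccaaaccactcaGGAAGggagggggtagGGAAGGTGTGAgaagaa
IFNG, chr10:118440796-118441045, plus strand: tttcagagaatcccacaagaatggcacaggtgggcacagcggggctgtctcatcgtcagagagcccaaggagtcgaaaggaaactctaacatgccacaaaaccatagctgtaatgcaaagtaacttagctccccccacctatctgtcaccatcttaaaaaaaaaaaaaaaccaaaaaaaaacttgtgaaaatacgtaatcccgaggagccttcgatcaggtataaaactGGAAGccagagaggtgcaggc
SRGN, chr10:62527446-62527695, minus strand: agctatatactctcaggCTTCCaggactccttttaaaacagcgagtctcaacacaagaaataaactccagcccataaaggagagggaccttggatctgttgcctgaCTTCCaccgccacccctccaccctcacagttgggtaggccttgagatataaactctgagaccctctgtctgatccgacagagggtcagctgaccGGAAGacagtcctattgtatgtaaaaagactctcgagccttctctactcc

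All 10 members matched a RefSeq promoter, 12 windows in all, since GZMM and SRGN have a pair each. The RUNX core was found for 7 of the 10 members, against 14% of 32851 promoter windows of that length. A member counted if any of its windows held a match, while the shares of all promoters are per window. SRGN counted only through its second start, whose window is not shown. The RUNX core stood before PRF1, GZMA, GZMB (2 matches) and NKG7, and was not in the windows of IFNG, GZMK or SERPINB9. The windows of GZMK (113180966 to 113181215) and SERPINB9 (33004291 to 33004540) lie inside the genes as placed by GENCODE. The ETS core was found for 8 of the 10, against 64.1% of all windows. The T-box element was found for NKG7, GZMK and the second GZMM start, and in 3.33% of all windows. A match is a run of letters and shows no binding.

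Of the 10 genes 5 were lower in PLZF+ cells and 0 higher. PRF1, GZMA, GZMB, NKG7 and SERPINB9 fell, SRGN and IFNG had lower values without passing the test, the locus of GZMM and CDC34 had higher values without passing it, GZMC was too low to test and GZMK had no read. Of the 10 members 8 reached a mean of 10 normalized counts and were tested by limma on log2(normalized count + 1), with p adjusted over all 8930 tested genes. The threshold was an adjusted p under 0.05, and the background in that fit was 4.73% of tested genes lower (422) and 2.52% higher (225). The count of members higher was also 0 at an unadjusted p under 0.05 and in the authors' deposited table. All 5 members that fell had a log2 fold change of -2 or less, and 2.8% of tested genes were called lower by that much. Of these members PRF1, GZMA and NKG7 reached the filter only through the PLZF- libraries, so that they had to be lower in PLZF+ cells. The locus of SERPINB9 lay at that cut, with a log2 fold change of -2.01, which was -1.90 with equal totals and by voom. Under voom, fitted with the libraries' totals, 278 genes were higher and 289 lower. In these bulk libraries, fewer cells with a transcript and less transcript per cell cannot be told apart.

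**Figure D1:**
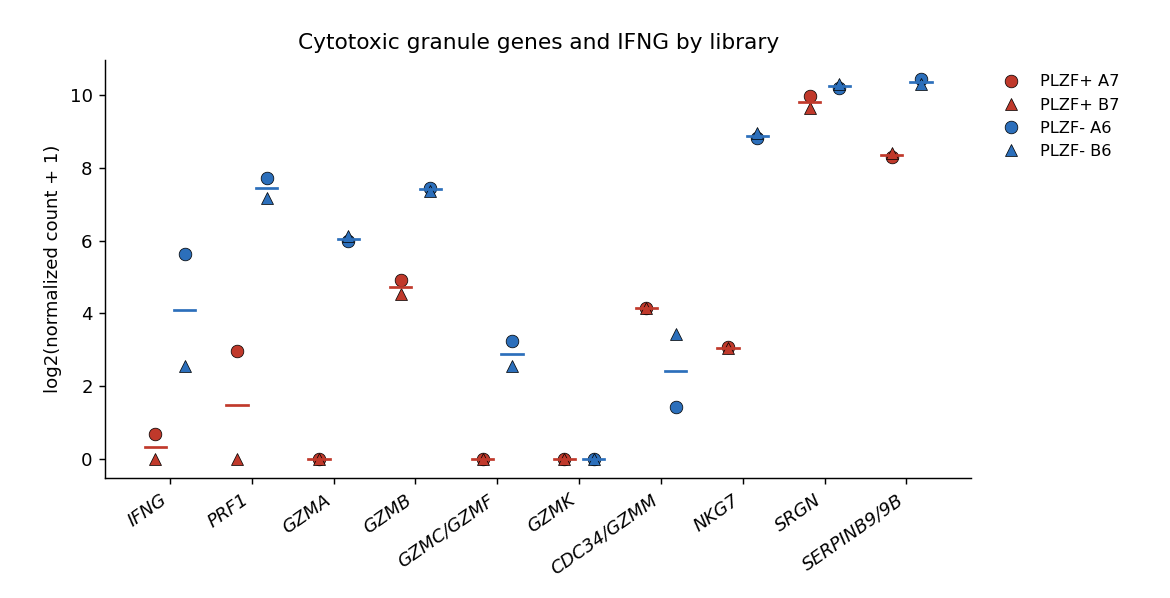
Normalized counts of the 10 genes in each library, as log2(normalized count + 1), with PLZF+ libraries in red and PLZF- libraries in blue; bars are means of the log2 values. PRF1, GZMA, GZMB, NKG7 and SERPINB9 are separated between subsets, SRGN lies close in all 4 libraries, and the PLZF- libraries differ for IFNG.

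IFNG, the cytokine gene, showed 0.619 and 0 normalized counts in A7 and B7 of PLZF+ cells, against 48.9 and 4.88 in A6 and B6 of PLZF- cells. In reads this was 1 in all in PLZF+ cells and 29 and 4 in PLZF- cells, so most of the signal was in library A6. The subsets did not overlap, but the PLZF- libraries differed by 10.0-fold between themselves. The log2 fold change was -3.75 ± 1.91 (SE, limma adjusted p = 0.30), with a 95% interval from -7.90 to 0.39. As counts, PLZF- over PLZF+ gave a ratio of 79.6 (exact 95% interval 13.3 to 3237, counting error only). Without A6 the log2 fold change was -2.21 (adjusted p = 0.76), and without B6 it was -5.29 (0.13).

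PRF1 encodes perforin, the pore-forming protein of the granule. PLZF+ libraries A7 and B7 held 6.81 and 0 normalized counts, against 208 and 141 in PLZF- libraries A6 and B6. Reads numbered 11 and 0, against 123 and 116, so one PLZF+ library held all the reads of that subset. The log2 fold change was -5.95 ± 0.89 (limma adjusted p = 0.0011), and the PLZF+ mean was 1.95% of the PLZF- mean. The call was lost without A6 (adjusted p = 0.088). The log2 fold change was -4.46 without B7 and -7.43 without A7, both still called. In the authors' deposited table PRF1 had a q-value of 0.60 and was not called.

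Among granzymes with a locus of their own, GZMA and GZMB had reads in PLZF- cells, and of these only GZMB had reads in PLZF+ cells. GZMA, a protease of tryptase specificity, had 0 reads in both PLZF+ libraries, against 62.4 and 68.3 normalized counts in PLZF- libraries. This was at least 37.0-fold lower, against a floor of 3 reads per library averaged over the subset (limma adjusted p = 0.0094). The PLZF- libraries differed by 1.09-fold between themselves. The call was lost without A6 (adjusted p = 0.17) or B6 (0.11), and also with a pseudocount of 0.25 (0.081) and by voom (0.057). In the authors' deposited table GZMA was called, with a q-value of 0.0019.

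GZMB cleaves after aspartate and is the granzyme best known for triggering caspases. It had normalized counts of 29.1 and 22.3 in PLZF+ libraries (47 and 40 reads), against 174 and 162 in PLZF- libraries (103 and 133 reads). Its PLZF+ mean was 15.3% of the PLZF- mean, so transcripts stayed detectable in both PLZF+ libraries while GZMA was at 0. The log2 fold change was -2.67 ± 0.42 (adjusted p = 0.0015, limma), and over 15 alternatives the adjusted p stayed between 2.2e-07 and 0.049. The q-value in the authors' deposited table was 0.018.

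The locus of GZMC and GZMF, further members of the chromosome 14 cluster, had 0 reads in PLZF+ libraries, against 8.44 and 4.88 normalized counts (5 and 4 reads) in PLZF- libraries. That is at least 3.77-fold lower against the same floor. It lay under the filter; without a filter its log2 fold change was -2.90 (limma adjusted p = 0.20), while the authors' deposited table called it lower with a q-value of 0.033. The other loci of the cluster (GZMD with GZME, GZMG and GZMN) were at 0 in all 4 libraries. GZMK, the neighbour of GZMA, also had 0 reads in all 4. The limit that 0 reads allow is 3 reads, or a normalized count of 1.86 and 1.67 for PLZF+ libraries and of 5.06 and 3.66 for PLZF- libraries.

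The locus of GZMM, a granzyme that cleaves after methionine and leucine, and CDC34, a ubiquitin-conjugating enzyme found in most cells, went the other way. It had 16.7 normalized counts in each PLZF+ library (27 and 30 reads), against 1.69 and 9.76 in PLZF- libraries (1 and 8 reads). It was the one tested member above both PLZF- libraries in both PLZF+ libraries, which held for 24.2% of tested genes. The log2 fold change of 1.72 ± 1.17 did not pass (limma adjusted p = 0.45, 95% interval -0.82 to 4.27), and nothing in the tables says which of the adjoining genes the reads came from.

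**Figure D2:**
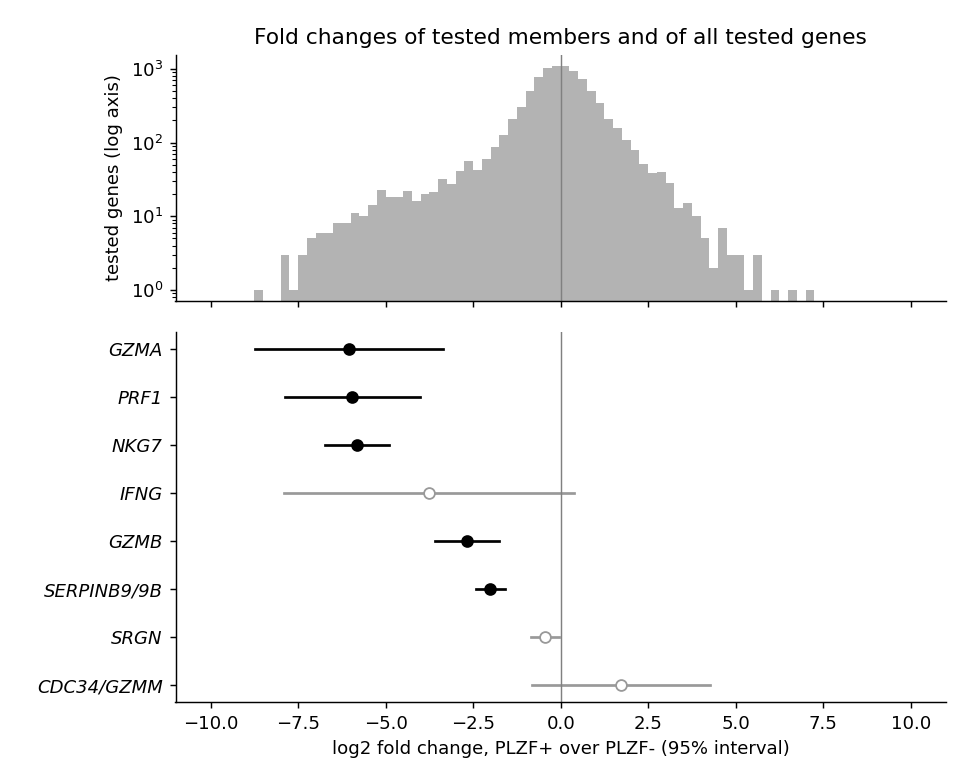
Log2 fold changes of the 8 tested members with 95% intervals (lower panel; filled points passed at an adjusted p under 0.05), under the log2 fold changes of all 8930 tested genes (upper panel, log count axis). GZMA, PRF1 and NKG7 lie near -6, GZMB and SERPINB9 between -3 and -2, and SRGN near the centre of all genes.

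NKG7 encodes a membrane protein of the granule that takes part in its release. It had normalized counts of 7.43 and 7.25 in PLZF+ libraries (12 and 13 reads), against 447 and 493 in PLZF- libraries (265 and 404 reads). Libraries of one subset differed by at most 1.10-fold, and the PLZF+ mean was 1.56% of the PLZF- mean. Its log2 fold change of -5.82 ± 0.42 (limma adjusted p = 8.2e-06) was kept with every library left out in turn, at an adjusted p of 0.0032 or less. The authors' deposited table gave it a q-value of 0.079, which is not a call.

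SRGN, the granule proteoglycan gene, which many blood cell types express, was high in all 4 libraries. It had 994 and 786 normalized counts in PLZF+ libraries, against 1166 and 1245 in PLZF- libraries. The subsets did not overlap, but the log2 fold change of -0.45 ± 0.19 did not pass (adjusted p = 0.20, limma), with an unadjusted 95% interval from -0.85 to -0.04. Its q-value in the authors' deposited table was 0.45.

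The locus of SERPINB9 and SERPINB9B had 315 and 337 normalized counts in PLZF+ libraries, against 1382 and 1244 in PLZF- libraries. The PLZF+ mean was 24.8% of the PLZF- mean, a log2 fold change of -2.01 ± 0.20 (limma adjusted p = 4.2e-05). It was called with each library left out, and in the authors' deposited table with a q-value of 0.0019, but missed the threshold with neither trend nor robust fit (adjusted p = 0.083). The related genes SERPINB9C, SERPINB9D, SERPINB9E, SERPINB9F and SERPINB9G were at 0 in all 4 libraries.

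Among tested members, both PLZF+ libraries lay below both PLZF- libraries for 7 of 8, which held for 26.9% of all tested genes. The median log2 fold change was -3.21 over the 8, against -0.02 over all 8930. These members were tested because their mean over all libraries reached the filter, and 4 of the 8 (IFNG, PRF1, GZMA and NKG7) reached it only through the PLZF- libraries, so that they had to be lower in PLZF+ cells. The locus of GZMM reached it only through the PLZF+ libraries, and 3 members (GZMB, SRGN and SERPINB9) had means above it in both subsets. The authors' deposited table called 4 members lower, namely GZMA, GZMB, and the loci of GZMC and SERPINB9, and the background there was 3.46% of 8736 loci tested by the authors lower and 1.84% higher.

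Levels per length (FPKM) put the genes in a different order in the subsets. In PLZF+ libraries SRGN came first (843 and 678 FPKM), then SERPINB9 (82.7 and 88.0) and GZMB (14.3 and 11.2), with no overlap between these neighbours. The loci of GZMM (8.10 and 9.71) and NKG7 (8.02 and 8.95) overlapped, and PRF1 (2.13 and 0) and IFNG (0.376 and 0) overlapped at the lower end. In PLZF- libraries SRGN was again first (995 and 1072), followed by NKG7 (507 and 570), SERPINB9 (343 and 314), GZMB (87.3 and 82.1), GZMA (62.0 and 68.8), PRF1 (51.5 and 36.6) and IFNG (30.4 and 3.06), each with lower values than the one before in both libraries. IFNG overlapped the locus of GZMC and GZMF (7.60 and 4.45), which overlapped that of GZMM (0.982 and 5.73). NKG7 thus stood below GZMB in PLZF+ cells and above SERPINB9 in PLZF- cells.

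**Figure D3:**
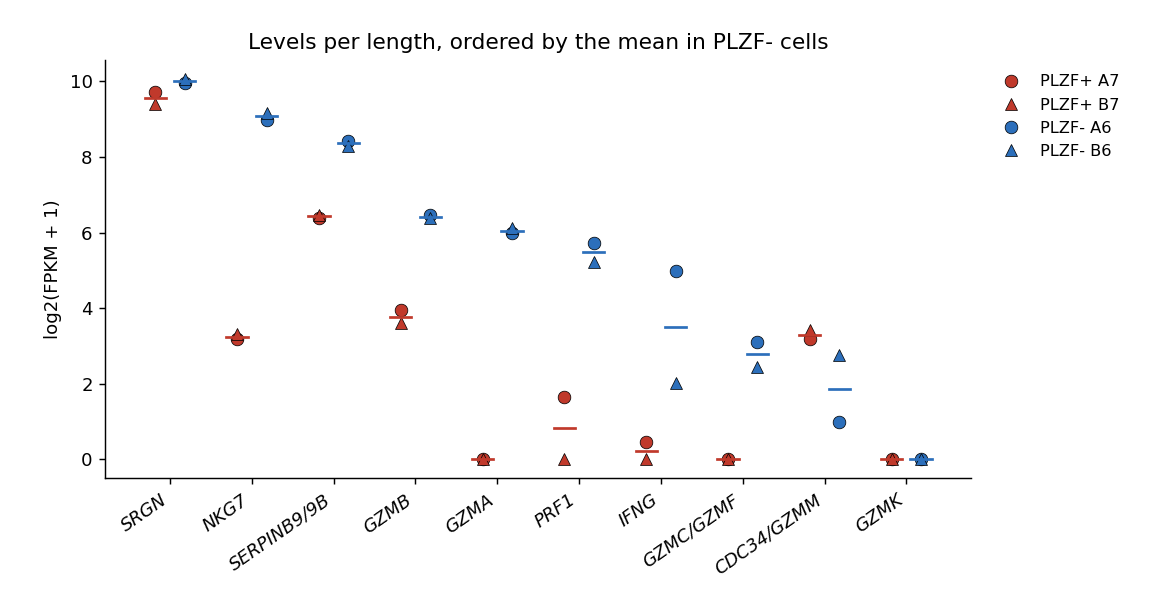
FPKM of the 10 genes in each library, as log2(FPKM + 1), ordered by the mean in PLZF- cells, with PLZF+ libraries in red and PLZF- libraries in blue; bars are means of the log2 values. SRGN leads in both subsets, and NKG7 stands below GZMB in PLZF+ cells and above SERPINB9 in PLZF- cells.

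The loci of GZMA, GZMB, GZMC (shared with GZMF) and GZMK summed to 14.3 and 11.2 FPKM in PLZF+ libraries, against 157 and 155 in PLZF- libraries. GZMB made up 100% of that sum in PLZF+ libraries, against 55.6% and 52.8% in PLZF- libraries. GZMA made up 0% in PLZF+ libraries, against 39.5% and 44.3% in PLZF- libraries. These shares are a description of 2 libraries each, and the PLZF+ sum rests on 87 reads.

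Single libraries decided some of the calls. Without PLZF- library A6, 3 members were called lower (GZMB, NKG7 and SERPINB9), and without B6 there were 4, with GZMA not passing. Without A7 or B7 there were 5. Over all tested genes 143 were called lower without A6, 340 without B6, 248 without A7 and 196 without B7, against 422 with all 4 libraries.

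**Figure D4:**
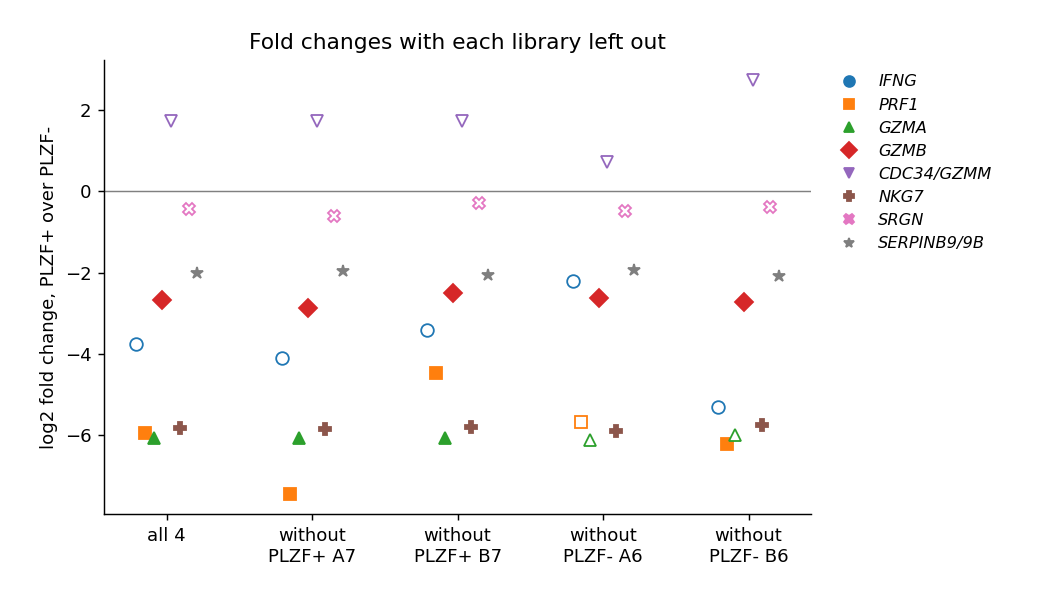
Log2 fold changes (PLZF+ over PLZF-) of the 8 tested members with all 4 libraries and with each left out; filled symbols passed at an adjusted p under 0.05. GZMB, NKG7 and SERPINB9 are filled throughout, GZMA is open without A6 or B6 and PRF1 without A6, and IFNG, SRGN and the locus of GZMM are open throughout.

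Among the 5 closest profiles outside the group, by Euclidean distance of centred log2 values to the mean profile of the 8 tested members over 4 libraries, were those of CD81 (0.19), UGCG (0.19), TRIM30D (0.28) and SLC14A1 (0.35). CD81, a tetraspanin gene, had 10.5 and 7.81 normalized counts in PLZF+ libraries, against 105 and 80.5 in PLZF- libraries. UGCG, which encodes glucosylceramide synthase, had 53.3 and 42.4, against 493 and 388. The ranking over 4 libraries is only a description.

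Other granule genes were mixed. Of 13 measured ones outside the members, 10 were tested, 3 fell, 1 rose and 6 did not pass, with a median log2 fold change of -0.06, which was 0.05 with equal totals. SERPINB6B, an intracellular inhibitor that in mice blocks granzyme A, had 83 and 53.6 normalized counts in PLZF+ libraries, against 899 and 846 in PLZF- libraries (a log2 difference of -3.69 ± 0.28, limma adjusted p = 8.7e-06). The related gene SERPINB6A went the other way, with 250.2 and 247 normalized counts in PLZF+ libraries, against 11.8 and 76.8 in PLZF- libraries (a log2 difference of 2.98 ± 0.70, adjusted p = 0.033), and did not pass once A7 (0.20) or B7 (0.24) was left out. CTSW, a cathepsin of cytotoxic cells, fell by 3.75 ± 0.34 on the log2 scale. FASL, the death ligand that acts beside the granule, fell, with 2 reads in PLZF+ libraries and 442 in PLZF- libraries (limma adjusted p = 3.0e-05). FASL reached the filter only through the PLZF- libraries. LAMP1, CTSC, CST7 and CALR, which are not confined to cytotoxic cells, had log2 fold changes from -0.30 to 0.99 and did not pass. TNFSF10, at -1.67 (limma adjusted p = 0.073), and LAMP2, at 0.18, did not pass either.

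Genes of granule release changed in part. Of 13 tested, 3 fell, 1 rose and 9 did not pass, with a median log2 fold change of 0.12, which was -0.13 without A6. LYST, which controls the size of lysosome-related granules, had 278 and 270.1 normalized counts in PLZF+ libraries, against 1758 and 1417 in PLZF- libraries (a log2 difference of -2.52 ± 0.20, limma adjusted p = 1.1e-05). Of the synaptotagmin-like proteins that bind RAB27A, SYTL2 fell by 2.57 ± 0.33 and SYTL3 by 2.69 ± 0.53 on the log2 scale, while SYTL1 rose by 2.0 ± 0.51. SYTL3 did not pass with any one of A6, A7 and B7 left out (adjusted p 0.070 to 0.086), and SYTL1 without the same libraries (0.11 to 0.42). The fusion genes UNC13D, STX11, STXBP2 and the locus of RAB27A had log2 fold changes from -0.34 to 0.40 and did not pass.

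Several receptors and factors upstream of IFNG fell. Of 15 tested genes 9 fell, 2 rose and 4 did not pass, with a median log2 fold change of -1.07. With 1 library left out, 4 or 5 fell and 0 to 2 rose, from FPKM values 4 fell and 0 rose, and with neither trend nor robust fit 2 fell and 0 rose. IL12RB2 and the locus of CD27 reached the filter only through the PLZF- libraries, so that they had to be lower in PLZF+ cells. The IL-12 receptor chains moved in opposite directions. IL12RB2, the chain that pairs with IL12RB1 for IL-12, had 1.24 and 3.35 normalized counts in PLZF+ libraries, against 501 and 467 in PLZF- libraries, whereas IL12RB1, the chain shared with the IL-23 receptor, had 341 and 332, against 23.6 and 92.7. IL12RB1 lost its call without A7 (limma adjusted p = 0.10) or B7 (0.13). The IL-18 receptor chains also moved apart, with IL18RAP lower by 2.26 ± 0.24 and IL18R1 higher by 1.0 ± 0.25 on the log2 scale, the rise of IL18R1 not passing with any one of A6, A7 and B7 left out (adjusted p 0.16 to 0.42). STAT4, which carries the IL-12 signal, fell by 1.51 ± 0.20. CD27, a costimulatory receptor of the TNF receptor family, had 8.05 and 7.25 normalized counts in PLZF+ libraries, against 317 and 249 in PLZF- libraries, at a locus shared with a microRNA gene (adjusted p = 3.5e-05).

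Of 8 tested cytokines and chemokines that cytotoxic cells secrete beside interferon gamma, 4 fell, 1 rose and 3 did not pass. The median log2 fold change was -2.75. The 4 that fell (CCL5, CSF2, CCL4 and XCL1) reached the filter only through the PLZF- libraries, so that they had to be lower in PLZF+ cells. Of the 3 that did not pass, TNF and LTA had log2 fold changes of 1.25 and 2.53, and TNFSF14 of -0.35. Without A6, with a pseudocount of 0.25, by voom and at a minimum mean of 50, 2 fell. CCL5, a chemokine stored in effector lymphocytes, had 9.91 and 1.12 normalized counts in PLZF+ libraries, against 516 and 396 in PLZF- libraries. CSF2, which encodes GM-CSF, had 8.05 and 1.12, against 420.1 and 412. CCL4 had 3 reads in PLZF+ libraries and 92 in PLZF- libraries, a PLZF- over PLZF+ ratio of 73.9 (exact 95% interval 24.5 to 365, counting error only), and did not pass once A6 (limma adjusted p = 0.32) or B7 (0.083) was left out. XCL1, with 1 read against 89, lost its call without A6 (0.20) or B6 (0.079). LTB, the lymphotoxin beta gene, was higher, with 422 and 323 normalized counts in PLZF+ libraries, against 140.0 and 220 in PLZF- libraries (adjusted p = 0.040), and did not pass with any one of A6, A7 and B7 left out (0.20 to 0.47).

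**Figure D5:**
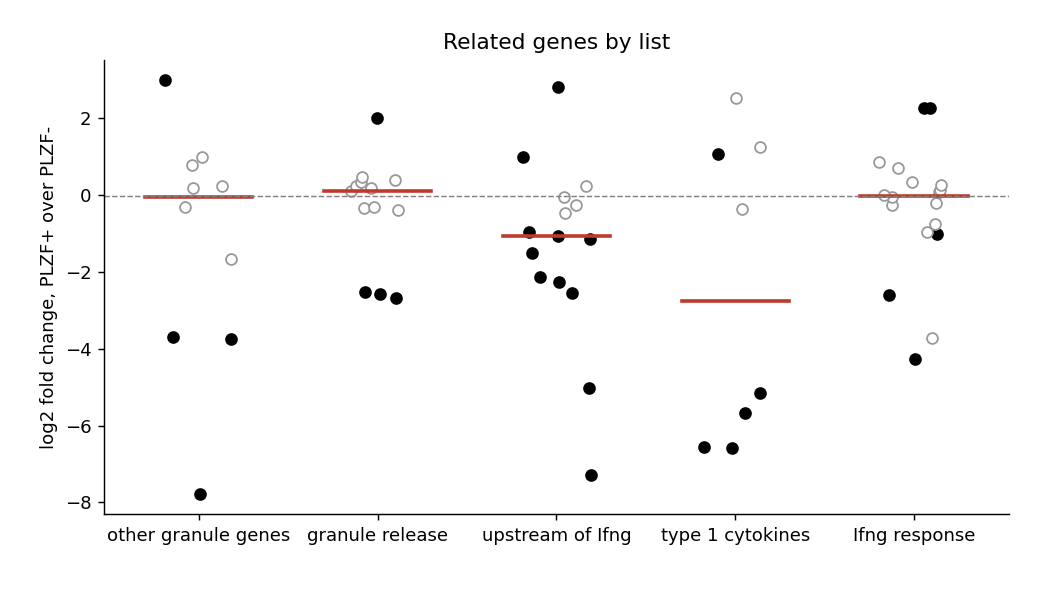
Log2 fold changes (PLZF+ over PLZF-) of tested genes in 5 related lists; filled points passed at an adjusted p under 0.05, red bars are list medians and the dashed line is the median of all tested genes (-0.02). The lists upstream of IFNG and of secreted cytokines have medians of -1.07 and -2.75, and the other 3 lie near 0. The 4 secreted cytokines that fell reached the filter only through the PLZF- libraries.

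Genes of the interferon gamma receptor, of its signalling and of the response to it, taken as one list, showed no common direction. Of 18 tested, 3 fell, 2 rose and 13 did not pass, with a median log2 fold change of -0.03, which was 0.07 with equal totals. Of the genes called, IFNGR2, JAK2 and JAK1 belong to the receptor and its kinases. IRF8 and the locus of GBP10 and GBP6 belong to the response. The receptor chain IFNGR2 had 447 and 545 normalized counts in PLZF+ libraries, against 81.0 and 129 in PLZF- libraries (a log2 difference of 2.26 ± 0.29, limma adjusted p = 0.00038), and kept its call with each library left out. The partner chain IFNGR1 did not pass, at a log2 fold change of -0.00095 (limma adjusted p = 0.998). The receptor kinases JAK2 and JAK1 fell by 2.61 ± 0.42 and 1.02 ± 0.18 on the log2 scale. JAK2 lost its call without A6 (adjusted p = 0.078), and JAK1 without A7 (0.12) or B7 (0.13). IRF8, which is also a marker of plasmacytoid dendritic cells, was at 4.95 and 16.2 normalized counts in PLZF+ libraries, against 241 and 159 in PLZF- libraries. The locus of GBP10 and GBP6, which encode interferon-induced GTPases, had 173 and 194 normalized counts in PLZF+ libraries, against 57.4 and 24.4 in PLZF- libraries (adjusted p = 0.0075), and was not called without A7 (0.14) or B7 (0.21). GBP2, GBP4, PSMB9 and TAP1 had log2 fold changes from -0.20 to 0.25 and did not pass.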

How the data were processed

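The submitters' processing notes name the genome build mm10 and the tools HISAT 0.1.6, SAMtools 1.2, Cufflinks 1.2 and Cuffdiff. Which annotation was used, and whether strand was, is not given in the sources used here, and reads of overlapping genes cannot be told apart. The authors deposited, per the file names and headers, a table of normalized counts from Cuffnorm (a signal, not whole reads), a table of FPKM, and p-values and q-values by locus. Low values were multiples of a step per library, but the share of values no further than 0.05 from a whole read was 92.1% to 94.1%, and no count model was used. The deposited test names its sides q1 and q2, so its q-values were used with the direction of the labelled FPKM columns.

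Loci that overlap and share a symbol were summed here (561 genes). Loci with no gene name (1.82% to 3.22% of a library's total) were left out, and so was the rRNA precursor RN45S, which was listed at 0 in B7 and held 26.8% to 33.2% of the other totals. Genes with a mean of at least 10 were tested with limma 3.58.1 in R 4.3.3 (trend, robust, two-sided, Benjamini-Hochberg over 8930 genes, threshold 0.05) on log2(normalized count + 1), a scale that understates changes of low genes. Coding sequences (GENCODE M21, longest per gene, without the stop codon) were aligned globally with Biopython 1.88, and identity is over positions without gaps. The fit was tested on simulated data. Libraries are pools, so p-values measure the spread between pools, with the variance of each gene drawn toward that of other genes by the fit. The members and lists were chosen with earlier results of these data known. All 10 members were named, with up to 4 genes per direction of each related list by adjusted p, the sums of marker lists with some of their most abundant genes, and the closest profiles, with some genes under these rules not reported here; other genes of these lists named with a range were chosen after their values were seen. Alternatives were other pseudocounts, filters, scalings and tables, other fits, the authors' calls and each library left out.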

Additional observations from a re-analysis of the deposited data

How the results depend on the processing

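No member reversed its direction under any alternative in which it could be tested. The 5 members called lower became 3 by voom and 3 with neither trend nor robust fit, and 3 to 5 with a library left out; 0 were called higher in any of these. Over all genes, 225 higher and 422 lower became 102 and 205 on the FPKM table (pseudocount 0.1), 24 and 146 with neither trend nor robust fit, and 401 higher with the letter of the column names as a term; with a library left out they ranged from 24 to 369 higher and 143 to 340 lower. PRF1 also lost its call on the FPKM table (adjusted p = 0.057), with neither trend nor robust fit (0.089) and by voom (0.096); the cause was not tested. At a minimum mean of 50, IFNG, GZMA and the locus of GZMM were not tested. The planned count model on recovered reads was not run, because too few values were whole. No paired analysis was possible because no column name carries a replicate number of the labels, and nothing says what the letter stands for; the fit with the letter as a term is therefore no pairing of replicates. Depth limits the low genes, since 1 read stands for a normalized count of 0.619 and 0.558 in PLZF+ cells and of 1.69 and 1.22 in PLZF- cells.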
